A study of Mus musculus with 30 samples.

Results

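The B cell identity genes described here are 9 mouse genes taken by symbol: Cd79a, Cd79b, Ms4a1, Pax5, Cr2, Blk, Cd22, Ebf1 and Spib. All 9 were found among the 48709 genes of the count tables, which cover RNA from brain, kidney, liver, quadriceps femoris muscle and spleen of adult C57BL/6 mice. Each tissue had 3 wild-type (WT) libraries and 3 libraries from Ctcf haploinsufficient mice (Ctcf+/-), 30 libraries in all. The Ctcf+/- mice carry a single working copy of Ctcf in every cell, so B cells and the tissues around them share the genotype. The series addressed intron retention under reduced Ctcf, a zinc finger protein that organises chromatin loops. Only gene-level counts were used here, and the question put to them was where the B cell genes were transcribed and whether their levels differed by genotype.

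B lymphocytes develop in bone marrow and collect in the follicles and marginal zones of the spleen. Cd79a and Cd79b encode the signalling subunits that sit beside surface immunoglobulin in the B cell receptor, and Blk is a Src family kinase downstream of it. Cd22 is a sialic acid binding co-receptor that dampens the signal, Cr2 is the complement receptor CD21 that strengthens it, and Ms4a1 encodes the membrane protein CD20. Pax5 and Ebf1 are transcription factors that commit precursors to the B lineage, and Spib is an Ets family factor of mature B cells. Cr2 is also made by follicular dendritic cells, and Ebf1 is also made outside the lineage, in adipocyte precursors, pericytes and some neurons.

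The start regions of 3 members are shown because they belong to genes that were high in spleen and low elsewhere, and because each holds a match to a motif of B lineage factors. They are RefSeq sequences of build GRCm38.p6, printed 5′ to 3′ on the strand of the gene, with motif matches in capitals. The Cr2 stretch is chr1:195176720-195176969 on the minus strand and ends at the RefSeq start. The Cd79a stretch is chr7:24897247-24897380 on the plus strand, the part of the 250 bases before its RefSeq start that lies outside annotated exons. The Cd22 stretch is 30 bases at chr7:30879058-30879087 on the minus strand, and the RefSeq start it precedes lies inside the Cd22 gene as counted.
Cr2: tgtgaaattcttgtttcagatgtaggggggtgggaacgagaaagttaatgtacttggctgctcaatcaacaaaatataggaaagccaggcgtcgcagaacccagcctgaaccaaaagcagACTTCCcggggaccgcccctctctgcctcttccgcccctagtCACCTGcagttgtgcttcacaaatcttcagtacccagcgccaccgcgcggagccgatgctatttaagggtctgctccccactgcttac
Cd79a: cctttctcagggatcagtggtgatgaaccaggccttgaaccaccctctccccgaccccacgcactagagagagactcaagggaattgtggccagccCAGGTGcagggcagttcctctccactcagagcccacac
Cd22: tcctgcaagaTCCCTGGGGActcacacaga

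The motifs searched, on both strands and in the 250 bases before each start, were the Ebf palindrome (TCCC, 2 bases of any kind, GGGA), the E-box CAGGTG bound by E proteins, and the Ets core GGAAGT. None of the 3 motifs contains another. Of the 9 members, 6 had a RefSeq window, with 2 windows for Ebf1 and 7 windows in all, and Cd79b, Ms4a1 and Blk had none. The Ebf palindrome lay in 1 of the 7 windows, 49 bases before the Cd22 start, against 0.779% of all 32851 mouse windows of that length. This Cd22 start is not the 5′ end of the counted gene, and 102 of the 250 bases of its window are annotated exon. The starts of both Ebf1 windows and of the Cd79a window also lie inside the counted genes. The E-box lay in the Cr2, Cd79a and Cd22 windows, 88, 154 and 245 bases before the start, against 17.2% of all windows. The Ets core lay in the Cr2 and Cd79a windows and in 1 of the 2 Ebf1 windows, 130, 54 and 56 bases before the start, against 19.7% of all windows. Only exact matches to these letters were counted, so a window without a match may still hold a variant of the site. These matches describe letters and carry no measurement of binding.

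The members lie on 6 chromosomes of GRCm38. Cd79a (chr7:24897381-24902197), Cd22 (chr7:30865402-30880342) and Spib (chr7:44525993-44532071) share chromosome 7. Cd79b (chr11:106311341-106314762) and Ebf1 (chr11:44617317-45008091) share chromosome 11. The others are Cr2 (chr1:195136811-195176716), Pax5 (chr4:44524757-44710487), Blk (chr14:63372837-63417187) and Ms4a1 (chr19:11249675-11266241). Counting ignored strand, and exons of Pax5 and Cd22 overlap opposite-strand genes. The overlap took 636 exon bases of Pax5, 7.18% of its exons, with 5730488B01Rik, 125 further bases with Gm12462, and 479 bases of Cd22, 9.60% of its exons, with Gm29439. The highest level of any of these 3 partners in a library was 1.91 CPM (counts per 1000000 assigned counts), for 5730488B01Rik.

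Libraries held 49819907 to 131645999 assigned counts. Ctcf was lower in every Ctcf+/- library than in every WT library of its tissue, at 61.4% to 67.2% of the WT mean, and passed the edgeR test in brain alone (adjusted p = 0.0259). Marker sums matched the tissue labels: 6 hepatocyte genes summed to at least 144550 CPM in each liver library, 6 skeletal muscle genes to at least 114526 CPM in each muscle library, 6 kidney tubule genes to at least 20706 CPM in each kidney library and 6 neuron genes to at least 5582 CPM in each brain library. The spleen libraries carried traces of other organs that went with genotype. The 6 hepatocyte genes summed to 33.6 to 43.0 CPM in the WT spleen libraries and to 0.350 to 0.647 CPM in the Ctcf+/- ones, where Ahsg was at 0. The 6 kidney tubule genes summed to 10.8 to 22.5 CPM in the Ctcf+/- spleen libraries and to 0.0841 to 0.379 CPM in the WT ones, where Kap, Umod, Slc22a6 and Aqp2 were at 0. Pancreatic acinar genes, 7 in all, summed to 10.2 to 1930 CPM over the spleen libraries, highest in Ctcf+/- replicate 2. Kidney tubule genes in muscle summed to 9.29 to 68.5 CPM in WT and to 0.0986 to 5.47 CPM in Ctcf+/- libraries. The part of these traces in the values below was not tested.

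Spleen carried the B cell programme. Levels are CPM scaled by edgeR's trimmed mean of M values (TMM) within a tissue, and per kilobase of exon where genes are compared with each other. In WT spleen, Cd79a stood at 840 ± 147 CPM per kilobase (SD, n = 3) and Cd79b at 654 ± 150, and the 2 receptor subunits led. Spib followed at 147 ± 17.2, Ms4a1 at 115 ± 22.7, Cd22 at 101 ± 12 and Blk at 99.3 ± 17.0. Cr2 stood at 51.2 ± 22.6 and Pax5 at 47.0 ± 4.44, and Ebf1 was lowest at 9.48 ± 2.06 CPM per kilobase. The 3 WT libraries of neighbours in this order overlapped, apart from the steps from Cd79b to Spib, from Blk to Cr2 and from Pax5 to Ebf1.

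Against each other WT tissue, 9 of 9 members were higher in spleen by edgeR's quasi-likelihood test at an adjusted p under 0.05. The background share of genes called higher in spleen was 37.0% against brain, 36.3% against kidney, 37.7% against liver and 38.1% against muscle. Cd79a had a fitted fold of 2493 over brain, 597 over kidney, 207 over liver and 2038 over muscle. The largest fitted folds over brain, 14770 for Ms4a1 and 9812 for Blk, rest on 1 to 4 and 0 to 4 counts in a WT brain library. Their order turned without WT brain replicate 1, where the fitted log2 fold of Blk was 16.80 on libraries of 0 counts and is no measure of size. Ebf1 had the smallest fold over brain (17.2), kidney (11.1) and muscle (5.81), while over liver the smallest was that of Cd22 (86.3) and Ebf1 stood at 198. The 36 comparisons of a member between spleen and another tissue had adjusted p-values from 2.66e-12 to 8.87e-09 by this test.

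**Figure D1:**
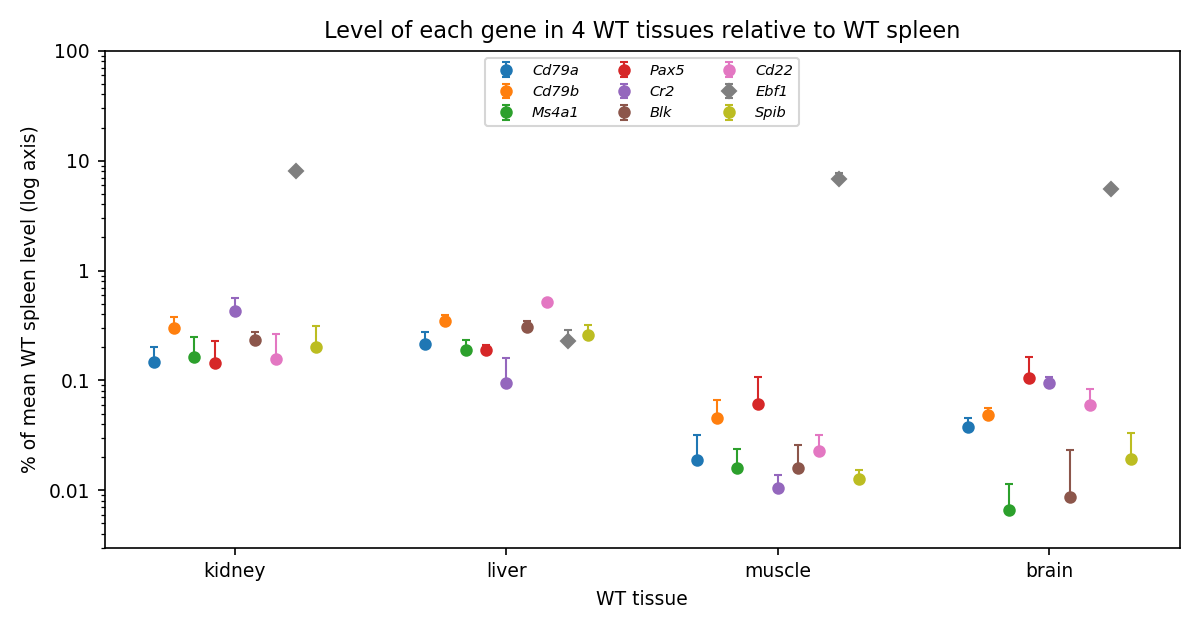
Mean level of each gene in WT kidney, liver, muscle and brain as a percentage of its mean WT spleen level (log axis), with a bar reaching 1 SD above the mean of 3 libraries. Levels are scaled within a tissue. Ebf1 (diamonds) stands at 5.50% to 7.97% in kidney, muscle and brain, while the other 8 genes lie between 0.00664% and 0.522% in all 4 tissues. With scaling over all 30 libraries Ebf1 stands at 15.4% in muscle.

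Expressed as a share of its own WT spleen level, with scaling within a tissue, each member other than Ebf1 was under 1% in all 4 other tissues. In WT kidney these 8 genes stood at 0.144% to 0.432% with a median of 0.181%, lowest for Pax5 and highest for Cr2. In WT liver they stood at 0.0945% to 0.522% with a median of 0.239%, lowest for Cr2 and highest for Cd22. In WT brain they stood at 0.00664% to 0.105% with a median of 0.0430%, lowest for Ms4a1 and highest for Pax5. In WT muscle they stood at 0.0106% to 0.0606% with a median of 0.0175%, lowest for Cr2 and highest for Pax5. The Pax5 values rest on 8 to 44 counts a library in WT brain and 8 to 49 in WT muscle. By this median, liver and kidney stood highest outside spleen and muscle lowest. In bulk RNA, fewer B cells and less RNA per B cell cannot be told apart. Traces of other organs were present in spleen and muscle, as given above. The part of any spleen trace in these shares was not tested. A scaling over all 30 libraries raised the liver median to 0.530% and the muscle median to 0.0400%, so the size of a share in those 2 tissues moved by over 2 times with the scaling, and muscle came close to the 0.0432% of brain.

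Ebf1 did not follow the other members. It stood at 7.97% ± 0.629 of its WT spleen level in kidney (SD, n = 3), 6.79% ± 0.915 in muscle and 5.50% ± 0.233 in brain. Those shares were 43.9, 388 and 128 times the median of the other 8 genes in the same tissue. In liver Ebf1 stood at 0.229% ± 0.0605, 0.962 times the median of the others. With scaling over all 30 libraries, Ebf1 stood at 8.86% in kidney, 15.4% in muscle, 5.51% in brain and 0.503% in liver. The order of kidney and muscle thus turned with the scaling. With scaling within a tissue, WT libraries of Ebf1 read 7.90, 6.75 and 7.47 CPM in kidney and 6.64, 5.32 and 6.89 in muscle. They read 5.34, 4.96 and 4.96 in brain and 0.148, 0.243 and 0.246 in liver. The liver values rest on 10 to 15 counts a library and lay below every value of the other tissues. The 7 pericyte and smooth muscle genes summed to 477 ± 17.6 CPM in WT muscle, 120 ± 13.2 in kidney, 112 ± 7.84 in brain, 72.6 ± 1.93 in liver and 4.01 ± 0.758 in spleen (SD, n = 3). The 6 adipocyte genes summed to 356 ± 265 CPM in WT kidney, 264 ± 77.1 in muscle, 18.3 ± 1.33 in liver, 15.5 ± 3.51 in spleen and 3.12 ± 0.137 in brain. The part of these cell types in the Ebf1 level was not tested.

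Cr2 and Cd22 differed between kidney and liver in opposite order. Cr2, a complement receptor, read 2.35, 1.71 and 1.32 CPM in the WT kidney libraries and 0.266, 0.209 and 0.704 in the WT liver libraries. Cd22 read 1.38, 0.360 and 0.611 CPM in WT kidney and 2.51, 2.68 and 2.67 in WT liver. With scaling within a tissue the kidney and liver libraries did not overlap for either gene, and this contrast was picked after the values were seen. The means keep their order under the scaling over all 30 libraries. They were 0.479% and 0.202% of the spleen level for Cr2 and 0.175% and 1.15% for Cd22 in kidney and liver. Overlap of single libraries was not compared under that scaling.

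Of the genes next to the members named here, some were highest in WT muscle and others, like the members, in WT spleen. Mybpc2, a myosin binding protein of fast muscle that lies 1336 bases downstream of Spib on the same strand, stood at 5171 CPM in WT muscle, where Spib stood at 0.0540 ± 0.0101 CPM. Scn4a, the muscle sodium channel 3829 bases upstream of Cd79b, stood at 270 CPM in WT muscle and 29.0 CPM in WT spleen. Pold1, a DNA polymerase subunit 674 bases upstream of Spib, stood at 125 CPM in WT spleen and at 4.65 to 8.72 CPM in the other 4 tissues. Arhgef1, 714 bases downstream of Cd79a, stood at 977 CPM in WT spleen and at 26.7 to 53.7 CPM elsewhere. Ffar1, 3837 bases downstream of Cd22, stood at 38.6 CPM in WT spleen and at or under 0.0978 CPM elsewhere. Cr1l, 5224 bases downstream of Cr2, stood at 114 CPM in WT spleen and at 20.5 to 69.6 CPM elsewhere.

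Within spleen, the genotype comparison found no member that passed the test. By edgeR's quasi-likelihood test with Benjamini-Hochberg adjustment, 0 of 9 members had an adjusted p under 0.05, against 0.242% of the 18615 genes tested. At an unadjusted p under 0.05 the count was also 0, against 3.52% of genes, and DESeq2 called none. The genes that edgeR called in spleen at an adjusted p under 0.05 included 5 of the 6 hepatocyte genes and 3 of the 6 kidney tubule genes. The fitted log2 fold changes (Ctcf+/- minus WT) were below 0 for 9 of 9 members with a median of -0.16, against 51.1% of all genes tested. The members share cells and libraries, so the 9 directions are not 9 separate observations. Members share libraries in the other tissues too, and the same limit holds for the directions there. Without WT replicate 3 the median was -0.035 and 6 of 9 were below 0.

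Cd79a read 1460, 1041 and 1171 CPM in the WT spleen libraries and 832, 1383 and 937 in the Ctcf+/- ones. Cd79b, its partner subunit, read 1113, 697 and 999 against 634, 1098 and 670 CPM. WT replicate 1 and Ctcf+/- replicate 2 were the highest of their groups for both subunits, and the groups overlapped. The fitted log2 difference was -0.22 (SE 0.26, 95% interval -0.84 to 0.40, edgeR adjusted p = 1.0) for Cd79a and -0.23 (SE 0.29, interval -0.92 to 0.47) for Cd79b.

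Cr2 read 242, 397 and 607 CPM in WT spleen and 336, 166 and 449 CPM in Ctcf+/- spleen. It had the widest spread of the 9, 3.67 times between the lowest and highest of the 6 libraries, and the groups overlapped. WT replicate 1 and Ctcf+/- replicate 2, the highest for Cd79a, were the lowest of their groups for Cr2. The log2 difference was -0.39 (SE 0.45, 95% interval -1.46 to 0.68). The 8 marker genes of follicular dendritic cells, which also make Cr2, and of stroma summed to 48.7, 32.4 and 22.8 CPM in WT and 52.5, 52.4 and 22.2 CPM in Ctcf+/- spleen.

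Ms4a1 read 619, 647 and 875 CPM in WT and 635, 585 and 696 CPM in Ctcf+/- spleen. Cd22, the inhibitory co-receptor, read 452, 485 and 568 against 470, 382 and 514 CPM. Blk read 249, 202 and 286 against 206, 219 and 236 CPM. All 3 were highest in WT replicate 3 and overlapped between genotypes. Their log2 differences were -0.16 (SE 0.20), -0.14 (SE 0.19) and -0.16 (SE 0.17).

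Among the transcription factors, Pax5 read 432, 371 and 445 CPM in WT and 355, 444 and 430 CPM in Ctcf+/- spleen. Ebf1 read 76.2, 86.4 and 115 against 88.2, 67.4 and 98.5 CPM. Spib read 381, 408 and 477 against 318, 401 and 407 CPM. All 3 overlapped between genotypes, and Pax5 varied least of the 9 members, by 1.25 times over the 6 libraries. The log2 differences were -0.02 for Pax5 (SE 0.17, 95% interval -0.42 to 0.38), -0.13 for Ebf1 (SE 0.22) and -0.17 for Spib (SE 0.18). Intervals of all 9 members in spleen spanned 0, and the lowest bound after that of Cr2 was -0.92, so a fall of over 1 log2 unit lay outside the interval of each member but Cr2. The genotype groups did not overlap for 0 of 9 members, against 6.65% of genes.

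**Figure D2:**
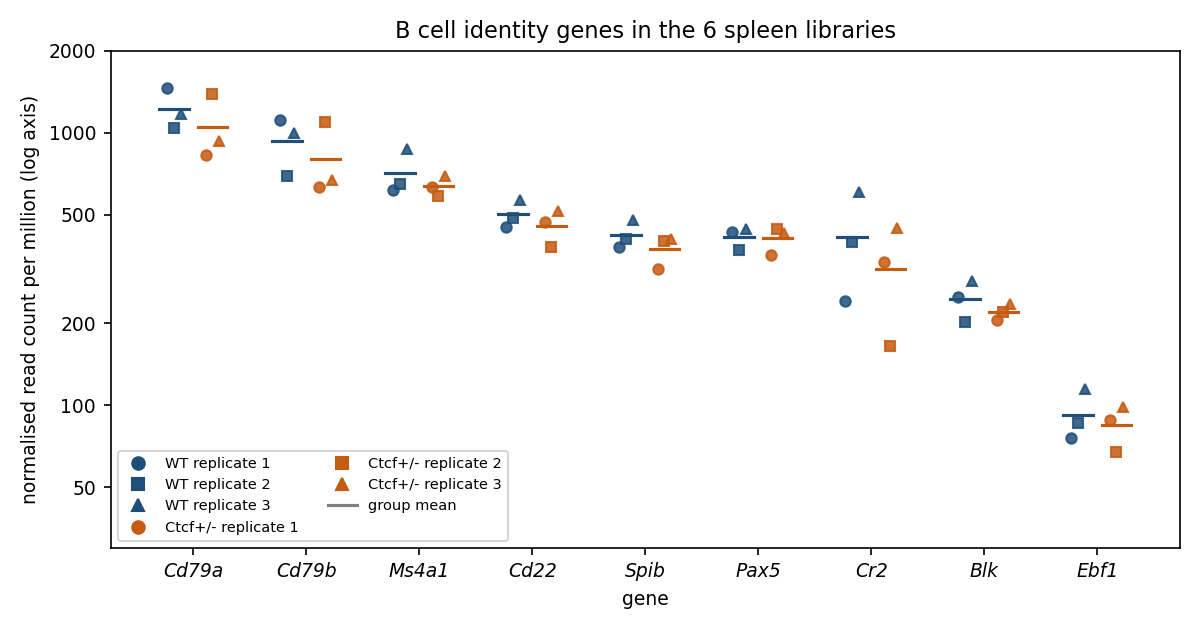
Normalised CPM (log axis) of the 9 genes in the 3 WT (blue) and 3 Ctcf+/- (orange) spleen libraries, with symbols for the replicate and a line at each group mean. The groups overlap for every gene, and WT replicate 3 (triangles) is the highest library for 7 of the 9.

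Libraries of 1 genotype differed among themselves as well. WT replicate 3 was the highest of the 6 libraries for 7 members, and WT replicate 1 for the other 2, Cd79a and Cd79b. Counts of the other members per 100 Cd79a counts put WT replicate 1 and Ctcf+/- replicate 2 apart. In those 2 libraries Cr2 stood at 16.6 and 12 per 100 Cd79a counts, against 38.1 to 51.8 in the other 4. Ebf1 stood at 5.22 and 4.87 against 8.30 to 10.6, and Ms4a1 at 42.4 and 42.3 against 62.1 to 76.4. Cd79b, at 66.9 to 85.3 in all 6, did not separate them. The same 2 libraries held the highest summed level of 12 erythroid genes, 96034 and 81532 CPM, against 15574 to 63535 CPM in the others. They also held the lowest TMM factors, 0.880 and 0.891, against 0.971 or more. The part of the erythroid RNA and of the scaling in the member values was not tested. With both libraries left out, an alternative chosen after seeing the data, the median log2 difference of the 9 members was -0.21, 9 of 9 were below 0 and 0 were called.

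**Figure D3:**
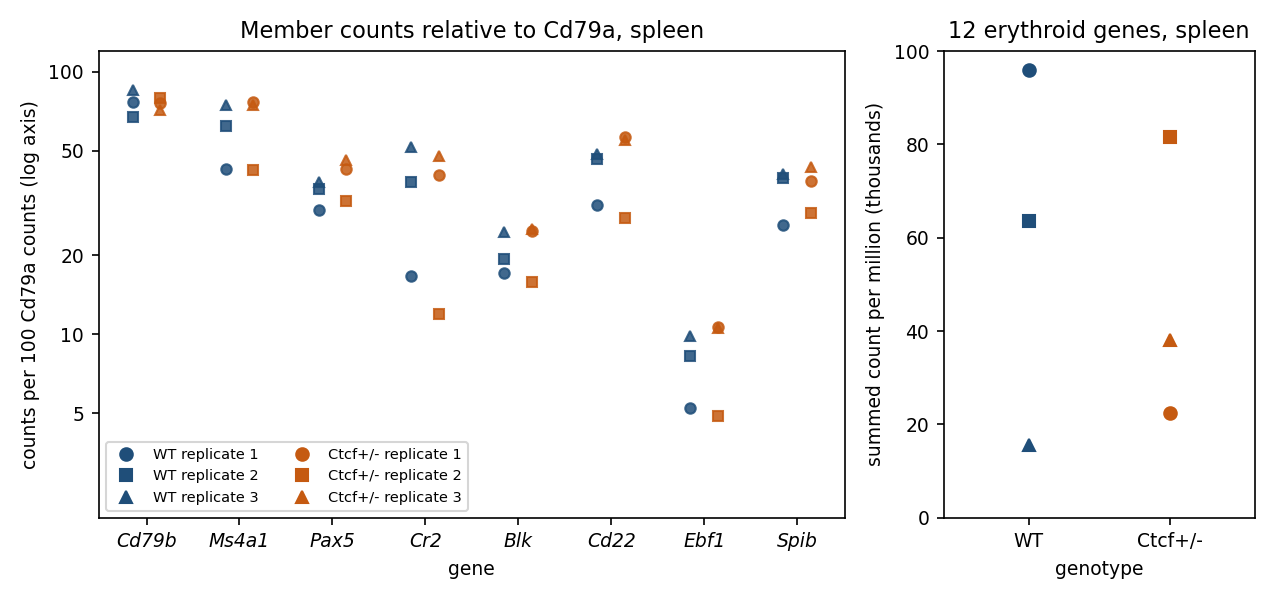
Left, counts of 8 genes per 100 Cd79a counts (log axis) in the 6 spleen libraries. Right, summed CPM of 12 erythroid genes in the same libraries. WT replicate 1 (blue circles) and Ctcf+/- replicate 2 (orange squares) lie lowest for Cr2 (16.6 and 12) and Ebf1 and highest for the erythroid sum.

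Other genes of the B lineage, from lists drawn up with earlier results of these data known, were tested in spleen beside the members and 0 were called. Of 16 receptor signalling genes 14 were below 0, with a median log2 difference of -0.12, and of 12 surface and survival genes 11, with a median of -0.18. Among the surface and survival genes, Cd24a differed most (1335 CPM in WT and 1027 in Ctcf+/-, log2 difference -0.38, SE 0.48). Cd180 (114 and 89.1 CPM, -0.35, SE 0.22), Ly86 (125 and 102 CPM, -0.30, SE 0.16) and Cd40 (62.2 and 50.4 CPM, -0.30, SE 0.17) came next. Among the receptor signalling genes, Bank1 differed most (261 and 220 CPM, -0.24, SE 0.22). Of 14 transcription factors of B cells 9 were below 0 and 5 above, with a median of -0.04. Id3 differed most (54.5 CPM in WT and 45.3 in Ctcf+/-, log2 difference -0.27, SE 0.18), then Mef2c (196 and 168 CPM, -0.22, SE 0.31). Foxo1 came next and was above 0, at 134 CPM in WT and 151 CPM in Ctcf+/- spleen (0.18, SE 0.18). Follicular B genes had a median of -0.01 over 5 genes. Of 7 marginal zone genes 6 were below 0, with a median of -0.11. Cd9, the 1 above 0, was at 52.1 CPM in WT and 68.1 CPM in Ctcf+/- (log2 difference 0.39, SE 0.27). S1pr3, a sphingosine phosphate receptor, was at 21.4 CPM in WT and 11.4 CPM in Ctcf+/- (log2 difference -0.91, SE 0.26, edgeR unadjusted p = 0.010, adjusted p = 0.754).

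Lists of other cells and B cell stages lay on either side of 0. All 7 plasma cell genes were above 0 with a median log2 difference of 0.34, and 2 of them had an unadjusted edgeR p under 0.05. Jchain, the joining chain of secreted polymeric antibody, was at 394 CPM in WT and 748 CPM in Ctcf+/- spleen (log2 difference 0.92, SE 0.35, unadjusted p = 0.034, adjusted p = 1.0 by edgeR). Derl3, a factor of endoplasmic reticulum quality control, was at 7.63 and 12.9 CPM (0.76, SE 0.28). Of 6 germinal centre genes tested, 5 were above 0, with a median of 0.46, and their sum was 100 CPM in Ctcf+/- replicate 1 and 29.6 to 44.8 CPM in the other 5 libraries. All 12 T cell genes were above 0, with a median of 0.20 and none at an unadjusted p under 0.05. All 8 neutrophil genes were above 0, with a median of 1.05, and summed to 3315, 614 and 680 CPM in WT and 5223, 2662 and 2281 CPM in Ctcf+/- libraries. All 12 erythroid genes were below 0, with a median of -0.42, as were 6 of 8 red pulp macrophage genes (median -0.21) and 3 of 5 B precursor genes tested (median -0.06). None of these genes was called, and the share of these other cells in the member levels was not tested.

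In kidney, 0 of 9 members passed the edgeR test (background 0.0211%, or 4 of 18937 genes, and 21 genes once the replicate number entered as a block), and 0 had an unadjusted p under 0.05, against 6.44%. Of the 9, 6 were below 0 with a median of -0.08, against 49.9% of all genes. Cd79a read 2.54, 1.16 and 1.69 CPM in WT and 1.68, 1.83 and 2.25 CPM in Ctcf+/- kidney. WT replicate 1 was the highest of the 6 libraries for 6 members and WT replicate 2 the lowest for 6, so the WT libraries enclosed the Ctcf+/- ones for Cd79a, Ms4a1, Pax5, Cd22 and Spib. WT replicate 1 also held the highest neutrophil sum, 10.1 CPM against 1.35 to 3.07 in the others. Without WT replicate 1 the fitted values of Cd79b, Ms4a1, Pax5, Blk and Spib turned above 0, up to 0.43 for Spib, and the member median to 0.25. That median was also above 0 without Ctcf+/- replicate 2. Ebf1 read 7.90, 6.75 and 7.47 against 7.68, 9.69 and 7.97 CPM, a log2 difference of 0.20 (SE 0.13, 95% interval -0.11 to 0.50).

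In liver, 0 of 9 members passed the edgeR test (background 0.0193%), and 0 had an unadjusted p under 0.05, against 4.56%. The fitted values were below 0 for 9 of 9, against 52.4% of all genes, with a median of -0.40, against -0.01 over all genes tested. As in spleen, these are not 9 separate observations. Cd22 read 2.51, 2.68 and 2.67 CPM in WT and 2.15, 1.89 and 1.97 CPM in Ctcf+/- liver. Its groups did not overlap, which held for 8.97% of genes, and its log2 difference was -0.39 (SE 0.19, 95% interval -0.82 to 0.04, exact permutation p = 0.10, the smallest that 3 against 3 allow). Cd79a read 2.80, 3.29 and 1.85 against 1.75, 1.45 and 2.12 CPM, and Cd79b 3.48, 3.58 and 2.77 against 1.84, 2.13 and 2.99 CPM. Both overlapped between genotypes, with log2 differences of -0.58 (SE 0.27) and -0.50 (SE 0.24). For all 9 members the highest library was WT, and the lowest was Ctcf+/- replicate 1 or 2 for 8 of them. The 9 members together rested on few counts, from 10 for Cr2 and Ebf1 to 236 for Cd79b in a library. Of 12 T cell genes, 11 were also below 0 in liver with a median of -0.32. So were 8 of 8 red pulp macrophage genes (median -0.33) and 5 of 5 neuron genes tested (median -1.60). Of 6 plasma cell genes tested, 4 were above 0 (median 0.17), and the erythroid genes had a median of 0.11. The part of these cells in the result was not tested. Leaving out Ctcf+/- replicate 3 moved the member median to -0.69, and leaving out WT replicate 3 turned Cr2 to 0.10.

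In muscle, 6 members had enough counts to be tested and 0 passed (background 0.0249%), with 0 at an unadjusted p under 0.05 against 6.45%. Of the 6, 4 were below 0, with a median of -0.08, against 51.6% of all genes. Without WT replicate 1 this median was 0.36, and it was also above 0 without Ctcf+/- replicate 1 or 2. Cr2, Blk and Spib were under the filter on low counts, at 0 to 10 counts a library. Cr2 had 0 counts in Ctcf+/- replicate 2, which allows up to 0.0345 CPM at that depth. Ebf1 read 6.64, 5.32 and 6.89 CPM in WT and 8.89, 6.68 and 7.00 CPM in Ctcf+/- muscle, with overlap, a log2 difference of 0.26 (SE 0.16, 95% interval -0.11 to 0.63). The adipocyte sum was 336, 272 and 183 CPM in the same WT libraries and 665, 368 and 523 CPM in the Ctcf+/- ones, and its part in the Ebf1 values was not tested. Cd79a read 0.403, 0.194 and 0.0986 against 0.246, 0.230 and 0.256 CPM, and the WT libraries enclosed the Ctcf+/- ones.

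In brain, 6 members were tested and 0 passed (background 0.0157%, or 3 of 19166 genes, and 22 genes once the replicate number entered as a block), with 0 at an unadjusted p under 0.05 against 2.96%. Of the 6, 5 were below 0, with a median of -0.12, against 51.8% of all genes. Cr2 read 0.397, 0.344 and 0.444 CPM in WT and 0.322, 0.244 and 0.298 CPM in Ctcf+/- brain. Its groups did not overlap, which held for 7.83% of genes, on 22 to 32 counts a library, with a log2 difference of -0.46 (SE 0.24, 95% interval -1.02 to 0.09, exact permutation p = 0.10). Ebf1 read 5.34, 4.96 and 4.96 against 4.61, 5.16 and 5.35 CPM, and its interval, -0.26 to 0.23 on the log2 scale, was the narrowest of any member in any tissue. Ms4a1, Blk and Spib were under the filter at 0 to 12 counts a library, and Blk had 0 counts in WT replicates 2 and 3. Cd22 was the member above 0, at 0.159, 0.330 and 0.404 against 0.526, 0.267 and 0.454 CPM, with overlap.

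**Figure D4:**
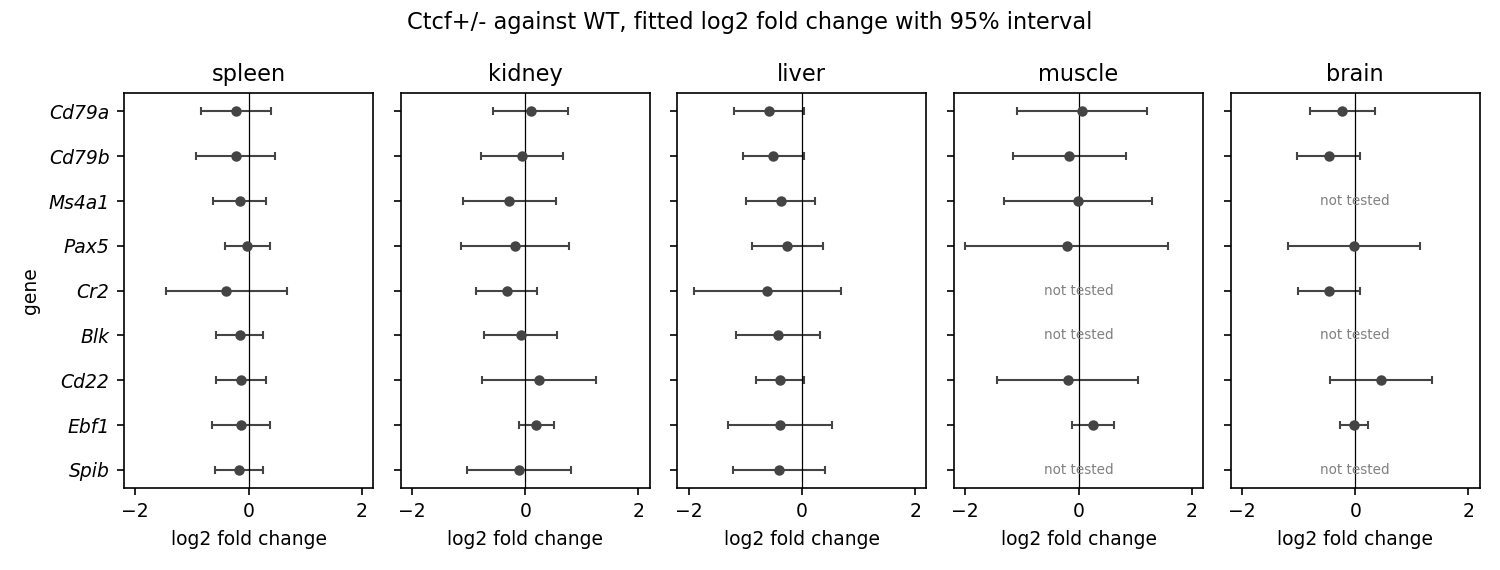
Fitted log2 fold change of Ctcf+/- against WT for each gene in each tissue, with its 95% interval from edgeR, and "not tested" where counts were below the filter. Every interval spans 0. In spleen and liver all 9 points lie below 0.

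Whether a member responded otherwise in spleen than elsewhere was tested as the difference between the spleen effect and the mean effect of the other 4 tissues, in 1 fit of all 30 libraries. By edgeR's quasi-likelihood test 0 of 9 members passed, against 0.486% of the 24262 genes tested, and the lowest unadjusted p was 0.190. The differences ran from -0.46 for Blk (SE 0.34, 95% interval -1.17 to 0.24) to 0.12 for Pax5 (SE 0.45, interval -0.81 to 1.04). Ebf1 had the narrowest interval, -0.60 to 0.23 around -0.18. No difference of a member between spleen and the other tissues was detected, while these intervals left differences in both directions possible.

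The genes whose pattern was most like the mean of the 9 members were named by the Pearson correlation of log2 CPM, given as a description because libraries of a tissue share most of the pattern. Over all 30 libraries and 19721 genes they were H2-Ob (r = 0.996), Myo1g (r = 0.996), Btla (r = 0.996), Hsh2d (r = 0.995) and H2-DMb2 (r = 0.995). H2-Ob, a chain of the class II modulator H2-O, stood at 618 ± 64.7 CPM in WT spleen and at no more than 3.84 CPM in a library elsewhere. Btla, an inhibitory receptor of lymphocytes, stood at 301 ± 51.7 CPM in WT spleen (SD, n = 3). Over the 6 spleen libraries alone and 11964 genes they were Tnfrsf13b (r = 0.993), Mettl13 (r = 0.983), Adm (r = 0.975), Acad10 (r = 0.973) and Ints4 (r = 0.972). Tnfrsf13b, the receptor TACI of B cells, stood at 164 ± 21.9 CPM in WT spleen. With 6 points these values describe the 6 libraries alone, and Acad10 and Adm were higher in another tissue than in spleen, at up to 94.6 and 6.39 CPM.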

How the data were processed

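Total RNA was homogenised in TRIzol and DNase treated, and Illumina libraries were made, per the labels' protocols. The deposited values are counts of fragments per gene, which the authors counted over exons of Ensembl release 86 on GRCm38 in featureCounts 1.5.0-p3 and without a strand option, per the file headers. The exon length of each gene is another deposited column, per the file headers. STAR, FastQC and DESeq2 are named without versions in the submitters' processing notes. The members, gene lists and naming rules were chosen with earlier results of these data known.

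Each tissue was fitted alone with edgeR 4.0.16 in R 4.3.3: filterByExpr, TMM, quasi-likelihood test, Benjamini-Hochberg adjustment, called under 0.05. Tissues were compared over the 15 WT libraries, and the difference of effects over all 30. The named genes are the 9 members, Ctcf, neighbours within 20 kb, up to 4 genes of each list with the largest spleen difference, and the 5 genes most alike in each of 2 sets of libraries. The correlations used log2(CPM + 0.05), and those over spleen alone took genes of at least 1 CPM. The script was tested on simulated data. Alternatives were DESeq2 1.42.0, other scalings, filters on low counts, a replicate block, all libraries in 1 fit, and leaving out libraries. A count of 0 was read as allowing up to 3 counts, and intervals and floors of this kind cover counting error only. Nothing in the labels says how the mice were related, and the same 6 mice may have given all tissues, so p-values measure the spread between these samples. Same-numbered WT and Ctcf+/- libraries deviated together in brain (r = 0.207 to 0.537 over genes) and kidney (r = 0.190 to 0.212). In muscle r was 0.0829 to 0.271, and 5 of 6 libraries were closest to their own number, as in brain. The fits of each tissue left the number out, so their SEs, intervals and p-values are unpaired. The number entered only as the replicate block among the alternatives.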

Additional observations from a re-analysis of the deposited data

How the results depend on the processing

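Over 601 alternative fits of single members between genotypes, 0 had an adjusted p under 0.05, and the lowest was 0.372. All 360 alternative fits of WT spleen against another tissue left the member higher in spleen at an adjusted p under 0.05. Of the genotype values, 51 turned sign, 8 of them with no library left out, and the cause was not tested. In brain, Pax5 moved to 0.039 with DESeq2 and 0.0099 with all 30 libraries in 1 fit, and Ebf1 to 0.0026 with genes of at least 1 count and 0.055 with all libraries in 1 fit. The brain median of the members moved to 0.039 with DESeq2 and 0.055 with all libraries in 1 fit. In muscle, Ms4a1 moved to 0.0097 with total counts, 0.0023 with genes of at least 1 count and 0.015 with all libraries in 1 fit, and in spleen Pax5 moved to 0.011 with total counts.

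Leaving out 1 library gave these ranges of log2 difference for members that turned sign. In spleen they were -0.11 to 0.071 for Pax5, -0.25 to 0.012 for Ms4a1 and -0.25 to 0.058 for Ebf1. In kidney they were -0.44 to 0.19 for Cd79b, -0.55 to 0.22 for Ms4a1, -0.53 to 0.34 for Pax5, -0.28 to 0.069 for Blk, -0.38 to 0.43 for Spib, -0.14 to 0.43 for Cd79a and -0.10 to 0.93 for Cd22. In muscle they were -0.27 to 0.41 for Ms4a1, -1.06 to 0.62 for Pax5, -0.71 to 0.17 for Cd22, -0.29 to 0.73 for Cd79a and -0.47 to 0.20 for Cd79b. In brain they were -0.40 to 0.36 for Pax5 and -0.058 to 0.049 for Ebf1, and in liver -0.99 to 0.10 for Cr2. For the spleen effect against the other tissues they were -0.35 to 0.046 for Cd79a, -0.26 to 0.18 for Cd79b, -0.47 to 0.27 for Cr2, -0.32 to 0.029 for Ebf1 and -0.16 to 0.042 for Spib. The median of the members ran from -0.69 to -0.32 for liver, -0.24 to -0.035 for spleen, -0.23 to 0.25 for kidney, -0.31 to 0.36 for muscle and -0.25 to -0.12 for brain.

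The replicate block changed no call of a member. With the replicate number as a block the spleen median of the members was -0.15, the liver median -0.44, the muscle median -0.08, the brain median -0.15 and the kidney median -0.05. Same-numbered libraries correlated at -0.472 to 0.475 in spleen, 0.0512 to 0.277 in liver and 0.0829 to 0.271 in muscle, where 1, 3 and 5 of 6 libraries were closest to their own number. The number of genes called under the block was 0 in spleen, 7 in liver and 118 in muscle, against 45, 3 and 4 without it. DESeq2 called 27 genes in brain, 188 in spleen, 68 in liver, 182 in kidney and 185 in muscle, and leaving out 1 spleen library gave 0 to 29. Against 45 genes in spleen, 4 each in kidney and muscle and 3 each in brain and liver, testing genes of at least 1 count called 74 (spleen), 45 (kidney), 66 (muscle), 6 (brain) and 16 (liver), and 1 fit of all libraries called 250, 13, 229, 1 and 37 in the same order. Genes of at least 10 counts in every library gave 0 calls in spleen and 2 in kidney, and leaving out 1 library gave 3 to 56 for kidney, 1 to 2 for muscle, 0 to 1 for brain and 1 to 17 for liver. For the difference between spleen and the other tissues it gave 68 to 164. With WT replicate 1 and Ctcf+/- replicate 2 of spleen both left out, 0 genes were called. For the difference between spleen and the other tissues DESeq2 called 428 genes against 118. In brain and muscle, 3 members a tissue had 0 to 12 counts a library and were not tested.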
